A study of Caenorhabditis elegans with 6 samples.

Results

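The mir-44 seed family of *Caenorhabditis elegans* was measured here through the 3p arms cel-miR-44-3p, cel-miR-45-3p, cel-miR-61-3p and cel-miR-247-3p (written without the species prefix below), which are 4 of the 437 mature microRNAs (miRNAs) listed. They were taken by name from the read-count file of each library. miR-44-3p and miR-45-3p held the same count in all 6 libraries, so the 4 names gave 3 distinct measurements, and the shared row is called miR-44/45-3p below. The libraries came from whole worms of the wild-type N2 strain kept at 20 °C on nematode growth medium, 3 from untreated controls and 3 from worms exposed as L4 larvae to CdCl2 at 60 µmol/L (cadmium group; its libraries are called exposed below). OP50 bacteria were the food, and the duration of exposure is not given in the labels. The labels do not say whether replicates were separate cultures, so p-values measure the spread between these libraries, which may be technical. Values from whole worms cannot tell fewer cells of a type from less RNA per cell.

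A miRNA is cut from a hairpin precursor that can give a 5p and a 3p arm, and the arm that is loaded into an Argonaute protein pairs with target messenger RNAs mainly through its seed, a short stretch near its 5′ end. Members of the mir-44 family share that seed, as do miR-279 and miR-996 of *Drosophila*, so they can in principle recognise the same targets. In *C. elegans* the family is known for promoting sperm fate in the hermaphrodite germline, and miR-61 is also known from vulval development, where it acts downstream of the receptor LIN-12/Notch and represses *vav-1*. The mature 3p sequences of mir-44 and mir-45 are the same, so reads of that arm cannot be assigned to 1 of these hairpins.

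The hairpins lie at 4 places on 3 chromosomes, given here in the WBcel235 build. The mir-44 hairpin (WBGene00003272) spans 11890023 to 11890118 on chromosome II, plus strand, flanked by the protein-coding genes ZK930.6 and ZK930.2, and its 3p arm covers 11890083 to 11890103. The mir-45 hairpin (WBGene00003273) lies 8983 bases away on the minus strand, at 11880944 to 11881039 with the 3p arm at 11880959 to 11880979, between top-2 and ZK930.6. A non-coding RNA gene, ZK930.13, is annotated over mir-45 on the opposite strand, and whether the counting used strand is not given in the sources used here. The mir-61 hairpin (WBGene00003289) is at 11770060 to 11770156 on the minus strand of chromosome V, between sel-11 and F55A11.4. The mir-247 hairpin (WBGene00003341) is at 4756971 to 4757068 on the plus strand of chromosome X, between C39E6.2 and mls-2. Both arms of each hairpin are 21 or 22 bases long.

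Of these hairpins, 3 have a close neighbour on their own strand. mir-43 ends 15 bases before mir-44, mir-250 is separated from mir-61 by 44 bases, and mir-797 from mir-247 by 40 bases. As background, miR-43-3p, miR-250-3p and miR-797-5p all belong to the miR-2 seed family, so each of these clusters places a mir-44 family hairpin beside a miR-2 family hairpin. mir-42, a member of the miR-35 family, precedes mir-43 in the first cluster, 117 bases from mir-44. For mir-45, the only other miRNA hairpins within 10 kb are those of the mir-42 to mir-44 cluster, all on the opposite strand.

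Library totals ran from 1640693 to 3917414 counts. Levels below are CPM, counts relative to the library total, scaled by the trimmed mean of M-values (TMM-scaled CPM), and group levels are mean ± SD of 3 libraries. All mature miRNAs have nearly the same length, so their levels can be set side by side on this scale, although ligation preferences of small RNA kits also differ between sequences. A change was called at an adjusted p under 0.05 in edgeR's quasi-likelihood test over all 208 tested miRNAs. Under this rule 1 of the 3 distinct family measurements, miR-247-3p, changed, against 45 of 208 tested miRNAs (21.6%). The higher calls were 20 of 208 (9.62%).

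The family differed in level by more than 2 orders of magnitude. In the control libraries miR-44/45-3p stood at 54411 ± 13162, miR-61-3p at 9586 ± 1952 and miR-247-3p at 52.7 ± 14.9 TMM-scaled CPM. That order was the same in all 6 libraries, with no overlap between neighbours in the order. By count, each of the identical rows for miR-44-3p and miR-45-3p ranked between 3 and 6 in every library, miR-61-3p between 14 and 26, and miR-247-3p between 79 and 125.

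miR-44/45-3p, the abundant measurement, was read 107634, 103515 and 259223 times in control replicates 1 to 3, against 256122, 295536 and 186223 times in exposed replicates 1 to 3. On the TMM-scaled CPM scale these were 57481, 39985 and 65767 in the control group, against 72637, 87324 and 83159 in the exposed libraries. All exposed libraries lay above all control libraries, and control replicate 2 was the lowest. The cadmium mean was 81040 ± 7569, a fitted log2 fold change of 0.57 (SE 0.21, 1.49-fold). The adjusted p was 0.0656 by edgeR's quasi-likelihood test and the unadjusted p was 0.018, so the difference missed the threshold. It passed under 4 of 17 other settings, namely DESeq2 size factors (adjusted p 0.0458), no filter on low counts (0.0169), the DESeq2 Wald test (0.0366) and the fit without exposed replicate 1 (0.0376). With total-count scaling the log2 fold change was 0.38 and the adjusted p 0.239.

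miR-61-3p, the member with a known role in the vulva, had 9134, 7900 and 11725 TMM-scaled CPM in the control group, against 14040, 11944 and 10996 in the exposed libraries. The groups overlapped, since exposed replicate 3 lay below control replicate 3. The cadmium mean was 12326 ± 1558, a fitted log2 change of 0.36 (SE 0.20, adjusted p 0.211 by edgeR's quasi-likelihood test). The difference did not pass under any of the 17 other settings, in which the log2 fold change ran from 0.18 to 0.53 and the adjusted p from 0.15 to 0.676.

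miR-247-3p, the least abundant member, rose. Its reads numbered 115, 92 and 241 in control replicates 1 to 3, against 533, 601 and 541 in the exposed libraries. The TMM-scaled CPM values were 61.4, 35.5 and 61.1 in control against 151, 178 and 242 in exposed libraries, so the lowest exposed library was well above the highest control library. The means were 52.7 ± 14.9 and 190 ± 46.5, a fitted log2 change of 1.85 (SE 0.29, 3.60-fold, adjusted p 0.00105 by edgeR's quasi-likelihood test). Among 208 tested miRNAs it had the rise of rank 5. It passed under all 17 other settings, with log2 fold changes from 1.61 to 2.02 and adjusted p-values up to 0.0143, the highest being that of the blocked fit, in which replicate number was a block.

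**Figure D1:**
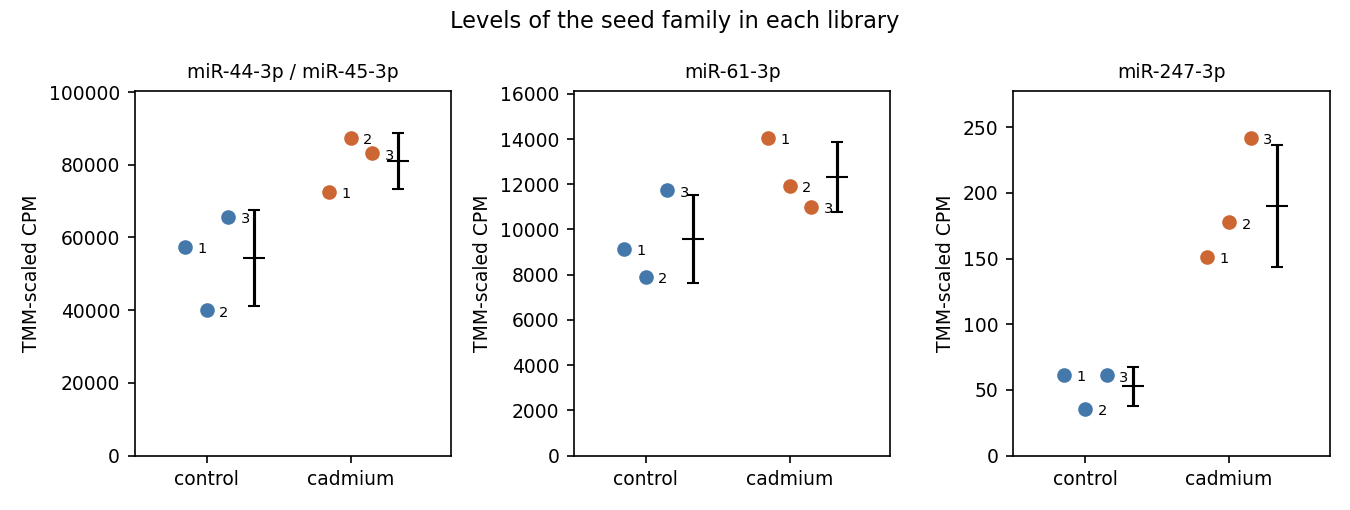
TMM-scaled CPM (linear axes from 0) of the 3 distinct family measurements, with 1 point per library, the replicate number beside it, and a bar for the mean ± SD of 3 libraries. The groups are apart for miR-44/45-3p and miR-247-3p and overlap for miR-61-3p.

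Groups that did not overlap, with cadmium above control, were thus seen for 2 of the 3 measurements, against 37 of 208 tested miRNAs (17.8%). The median log2 fold change of the 3 was 0.57, that of miR-44/45-3p, and the median of all tested miRNAs was 0.0039. When libraries were scaled by their totals, the median of all tested miRNAs shifted to −0.16. The family median, again that of miR-44/45-3p, shifted to 0.38.

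**Figure D2:**
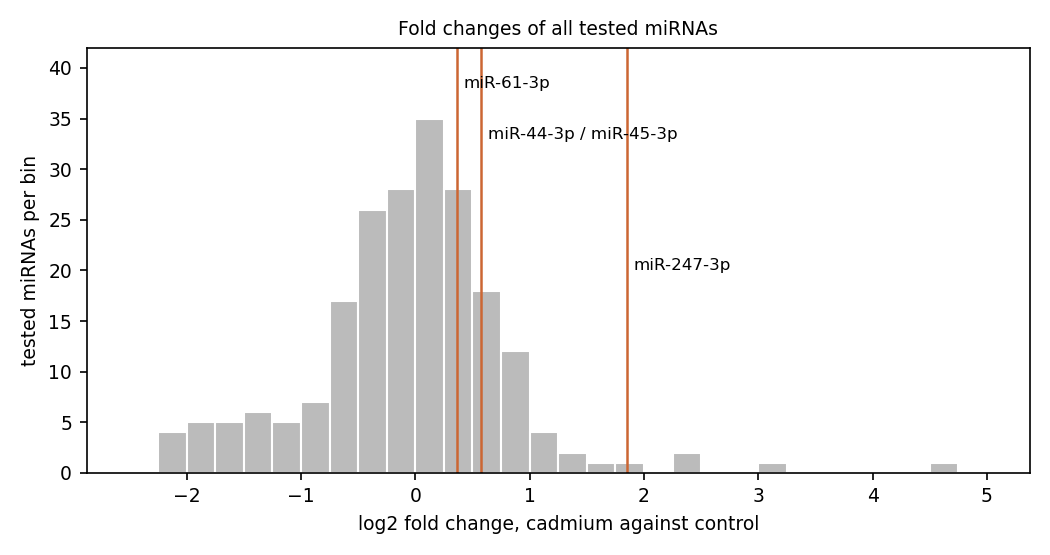
Histogram of the log2 fold change (x axis) of the 208 tested miRNAs, in numbers per bin (y axis), with a line at each distinct family measurement. All 3 lines lie to the right of 0, at 0.36, 0.57 and 1.85, as do 105 of the 208 tested miRNAs. Few miRNAs lie beyond miR-247-3p.

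Summed over the family, with the shared count entered once and taken out once from the library total, the share of counts was 8.14%, 5.34% and 8.36% in control replicates 1 to 3. It was 9.88%, 9.65% and 8.83% in exposed replicates 1 to 3. The means were 7.28 ± 1.68% and 9.46 ± 0.55%, and control replicate 2 stood apart at the low end. These sums follow the most abundant row, which gave 83.4% to 88.1% of the family's counts, and miR-61-3p gave 11.6% to 16.5%. miR-247-3p gave 0.0817 ± 0.0093% of the family's counts in control and 0.203 ± 0.046% in exposed libraries.

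Whether the members moved by different amounts was asked with ratios of counts within a library, which do not depend on how libraries are scaled. There were 0.00107, 0.000889 and 0.00093 reads of miR-247-3p for each read of miR-44/45-3p in the control group, against 0.00208, 0.00203 and 0.00291 in the exposed libraries. All exposed ratios were above all control ratios, a mean difference of 1.27 on the log2 scale (SE 0.18). In a two-sided exact permutation test p was 0.1, the smallest that 3 against 3 libraries allow, and 0.15 adjusted over the 3 ratios between members. miR-247-3p against miR-61-3p gave a log2 difference of 1.49 (SE 0.34), also with the groups apart (exact permutation p = 0.1, adjusted 0.15). The ratio of miR-61-3p to miR-44/45-3p was 0.159, 0.198 and 0.178 in control and 0.193, 0.137 and 0.132 in exposed libraries. Here the groups overlapped (log2 difference −0.23, SE 0.20, exact permutation p = 0.3).

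The 5p arms of mir-44 and mir-45 had counts of their own, although how reads matching both would be counted is not given in the sources used here. Of the 4 other arms of the family's hairpins, 3 could be tested, and 1 of them, miR-45-5p, rose, against 9.62% of all tested miRNAs called higher. Reads of miR-45-5p numbered 135, 131 and 332 in the control group, against 598, 429 and 276 in the exposed group. Its TMM-scaled CPM values were 72.1, 50.6 and 84.2 against 170, 127 and 123, with all exposed libraries higher. The means were 69.0 ± 17.0 and 140 ± 25.8, a fitted log2 change of 1.02 (SE 0.26, adjusted p 0.0206 by edgeR's quasi-likelihood test). miR-44-5p had 40.1, 36.7 and 62.4 TMM-scaled CPM in control, against 64.1, 41.4 and 43.3 in exposed libraries. Its groups overlapped, with a fitted log2 change of 0.09 (SE 0.30, adjusted p 0.852 by edgeR's quasi-likelihood test) that was below 0 with total-count scaling.

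The 5p arms of the hairpins were also set against each other, a comparison added after the values were seen. For each read of miR-44-5p there were 1.80, 1.38 and 1.35 reads of miR-45-5p in control replicates 1 to 3. There were 2.65, 3.06 and 2.85 in exposed replicates 1 to 3, so that every exposed library was above every control library. The mean log2 ratio went from 0.58 ± 0.23 to 1.51 ± 0.11, a difference of 0.93 (SE 0.15) that ran from 0.85 to 1.06 with 1 library left out. The exact permutation p was 0.1, again the smallest possible, and 0.2 adjusted over all 8 ratios computed. The rise of miR-45-5p on its own missed the threshold with total-count scaling (adjusted p 0.0586), in limma fits of deposited CPM with 1 (0.0756) or 0.1 (0.0968) added, without control replicate 1 (0.0524), without control replicate 2 (0.0548) and in the blocked fit (0.0787).

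**Figure D3:**
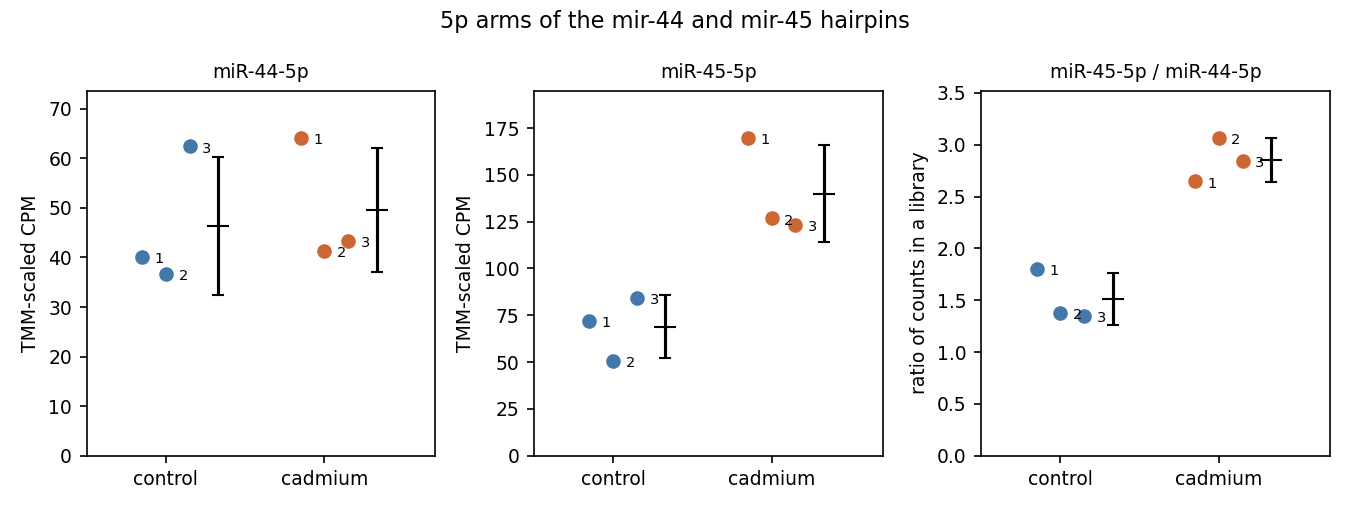
TMM-scaled CPM of miR-44-5p and miR-45-5p and the ratio of their counts (linear axes from 0), with 1 point per library and a bar for the mean ± SD of 3 libraries. The ratio lies at 1.35 to 1.80 in control and 2.65 to 3.06 in exposed libraries.

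miR-61-5p had 29.9, 51.0 and 40.6 TMM-scaled CPM in control, against 37.4, 56.7 and 82.6 in exposed libraries (log2 fold change 0.53 with an SE of 0.33, adjusted p = 0.289 by edgeR's quasi-likelihood test). Its groups overlapped, as did those of its 3p arm. That change was 0.22 without exposed replicate 3, 0.35 without control replicate 1 and 0.80 without exposed replicate 1. miR-247-5p had 0 counts in all 6 libraries, which allows up to 0.761 to 1.60 TMM-scaled CPM per library at a limit of 3 counts. A change in the ratio of the mir-247 arms could therefore not be tested.

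The 3p arm was the abundant one for mir-61 and mir-247. The shared 3p count of mir-44 and mir-45 was far above either 5p count, but its split between these hairpins is not known. For mir-61 the log2 ratio of 5p to 3p counts was −7.89 ± 0.54 in control and −7.77 ± 0.75 in exposed libraries, which is 0.12 higher (SE 0.44, limma's adjusted p 0.973). Over 63 hairpins tested, 2 had a changed ratio (3.17%), and mir-61 was not among them. For mir-44 and mir-45 the 3p count is shared, so their arm ratios differ only through the 5p arm. The changes were −0.49 (SE 0.35) for mir-44 and 0.43 (SE 0.33) for mir-45, both with an adjusted p of 0.661 in limma.

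Among the 8 listed mature miRNAs of the neighbouring hairpins, 6 could be tested. Of these miR-797-5p rose and miR-42-3p fell (the lower calls were 12.0% of all tested miRNAs), and 4 did not pass the threshold. The ratios of family members to these neighbours, like that of the 5p arms, were added after the values were seen. On chromosome X, miR-797-5p had 30.4, 17.4 and 17.0 TMM-scaled CPM in control, against 60.1, 59.4 and 68.3 in exposed libraries. All exposed libraries were higher, with a fitted log2 change of 1.55 (SE 0.29, adjusted p 0.00344 by edgeR's quasi-likelihood test). The count ratio of miR-247-3p to miR-797-5p was 2.02, 2.04 and 3.60 in control and 2.51, 2.99 and 3.54 in exposed libraries. That ratio overlapped between the groups, with a log2 difference of 0.28 (SE 0.31, exact permutation p = 0.4), which lay between 0.14 and 0.56 when single libraries were dropped.

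In the chromosome II cluster, miR-42-3p had 695, 802 and 829 TMM-scaled CPM in control, against 506, 415 and 526 in exposed libraries, so that all exposed libraries were lower. Its log2 fold change was −0.69 (SE 0.19, adjusted p 0.0297 by edgeR's quasi-likelihood test), against 0.57 for miR-44/45-3p. Reads of that shared row cannot be assigned to mir-44, the last hairpin of the cluster, rather than to mir-45, outside it. For the 5p arms, which had counts of their own, the log2 fold changes were 0.09 for miR-44-5p and 1.02 for miR-45-5p. The count ratio of miR-44/45-3p to miR-42-3p was 82.7, 49.9 and 79.3 in control and 143, 210 and 158 in exposed libraries. The groups did not overlap (log2 difference 1.29, SE 0.29, exact permutation p = 0.1, and 0.2 adjusted over all 8 ratios), but reads of miR-44/45-3p can come from mir-45 as well. Against miR-43-3p, the nearer neighbour, the groups overlapped (log2 difference 0.81, SE 0.85, exact permutation p = 0.4), and the difference ran from 0.16 to 1.44 when single libraries were dropped. miR-42-3p missed the threshold in the blocked fit (adjusted p 0.0975), with upper-quartile scaling (0.0579), with no filter (0.0504) and when control replicate 2 (0.0569), control replicate 3 (0.144), exposed replicate 2 (0.0884) or exposed replicate 3 (0.0614) was left out.

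miR-43-3p, between them, varied widely within the control group, at 23.0, 94.6 and 61.9 TMM-scaled CPM against 47.6, 26.9 and 67.9 in the exposed libraries (log2 fold change −0.35 with an SE of 0.46, adjusted p = 0.612 by edgeR's quasi-likelihood test). That estimate was 0.11 without control replicate 2. miR-42-5p was low throughout, at 4.91 to 10.7 TMM-scaled CPM, with a fitted log2 change of −0.53 (SE 0.31, adjusted p 0.26 by edgeR's quasi-likelihood test). On chromosome V, miR-250-3p had 554, 893 and 584 TMM-scaled CPM in control, against 822, 526 and 885 in exposed libraries. Its groups overlapped, with a fitted log2 change of 0.14 (SE 0.26, adjusted p 0.717 by edgeR's quasi-likelihood test) that was below 0 with total-count scaling. The count ratio of miR-61-3p to miR-250-3p also overlapped between groups (log2 difference 0.24, SE 0.44, exact permutation p = 0.6). miR-250-5p had a fitted log2 change of −0.25 (SE 0.31, adjusted p 0.582 by edgeR's quasi-likelihood test).

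**Figure D4:**
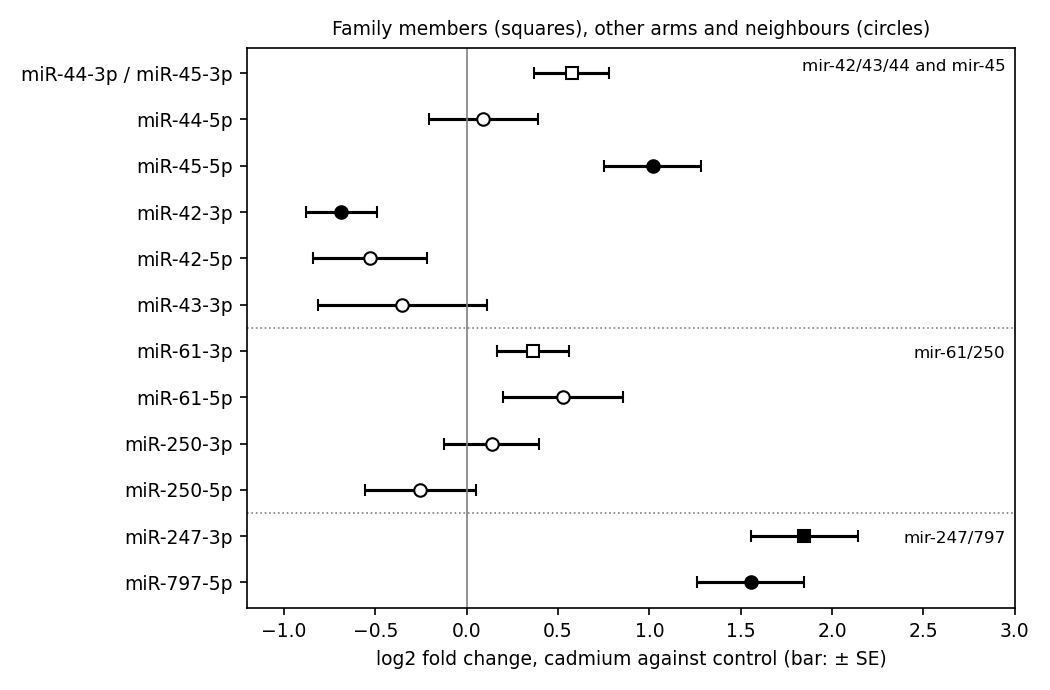
Log2 fold change (x axis, bar ± SE from edgeR) of the family members (squares), the other arms of their hairpins and the neighbouring miRNAs (circles), grouped by cluster, with filled symbols for an adjusted p under 0.05. Filled symbols are miR-45-5p, miR-247-3p and miR-797-5p above 0 and miR-42-3p below 0.

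The miRNAs most alike in profile were sought by the mean absolute difference of log2 levels over the 6 libraries, after each profile was centred on its mean. For miR-44/45-3p these were miR-5551-5p (0.085), miR-2953-3p (0.098) and miR-238-3p (0.13), against a median difference of 0.43 over the 204 miRNAs outside the family. For miR-61-3p they were miR-1022-5p (0.095), miR-87-3p (0.14) and the muscle miRNA miR-1-3p (0.14), with a median of 0.38. For miR-247-3p the closest were miR-788-5p (0.30), its cluster neighbour miR-797-5p (0.31) and miR-249-3p (0.34), with a median of 0.95. The closest 3 lie below such a median by construction, and profiles with small changes differ little from one another on this measure. Within the family, miR-44/45-3p and miR-61-3p differed by 0.21 on this measure, and they differed from miR-247-3p by 0.63 and 0.74 respectively. The difference between miR-44/45-3p and miR-61-3p was thus below the median of either, 0.43 and 0.38. The differences from miR-247-3p were below its own median, 0.95, but above the medians of miR-44/45-3p and miR-61-3p.

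**Figure D5:**
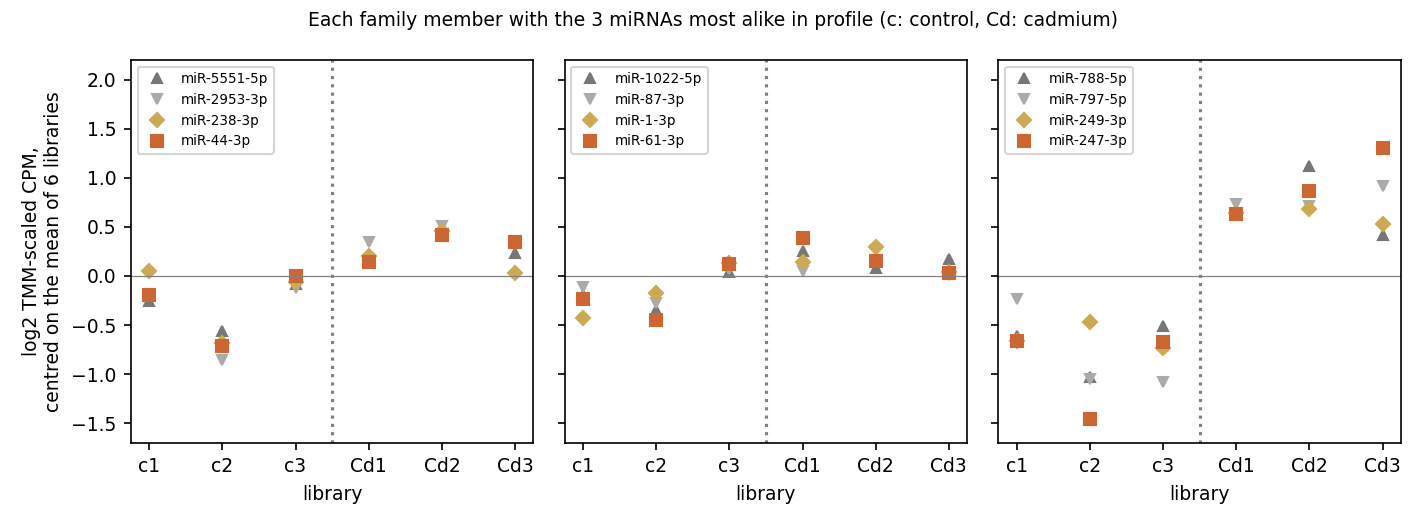
Log2 TMM-scaled CPM in each library, centred on the mean of the 6 libraries (y axis), for each family member and the 3 miRNAs most alike in profile. miR-44-3p stands for the shared miR-44/45-3p row, and its profile and that of miR-61-3p stay closer to 0 than that of miR-247-3p.

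Tissue-linked miRNAs were read beside these results. The miR-35 family, which is abundant in oocytes and embryos, fell in 8 of 8 members (median log2 fold change −1.92), against 12.0% of all tested miRNAs called lower. Their summed level was 63540 to 109914 TMM-scaled CPM in control, against 17130 to 29401 in exposed libraries, and its part in the results above was not tested. With that family left out of the table, edgeR gave log2 fold changes of 0.59 for miR-44/45-3p (adjusted p 0.0569) and 0.37 for miR-61-3p (0.184). For miR-247-3p it gave 1.86 (adjusted p 0.00335). Leaving out rows alters the fit but not the worms sampled, so this refit does not test that part. For miR-1-3p of muscle, lsy-6-3p, miR-124-3p and miR-791-3p of neurons, and miR-60-3p of the intestine, the log2 fold changes lay between −0.25 and 0.30, with adjusted p-values of 0.296 to 0.633 in edgeR. The summed level of the 3 neuronal miRNAs was 102 to 131 TMM-scaled CPM in control, against 108 to 134 in exposed libraries.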

How the data were processed

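Small RNA of 6 libraries was sequenced on an Illumina NextSeq 500 after TRI reagent extraction, per the labels' protocols. The deposited counts are whole-number reads per mature miRNA, 1 file per library, and the deposited CPM values scale each count to its library's total (recomputed values differed by less than 0.001). Per the submitters' processing notes, cutadapt 3.4 and Bowtie2 2.4.2 were among the tools and WBcel235 was the genome build. The counting tool, the miRNA annotation release and the treatment of reads matching several miRNAs are not given in the sources used here, and the last bears on miR-44-3p and miR-45-3p. Series-wide tables hold 12 columns of values, left aside since no sample title matches their names. Whether these columns repeat the values of the 6 libraries was not tested.

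Counts were analysed in R 4.3.3 with edgeR 4.0.16: filterByExpr (208 of 437 miRNAs), TMM factors and the two-sided quasi-likelihood F test on all 6 libraries without covariates, with Benjamini-Hochberg adjustment over the 208. The prior count was 0.125, and the SE was derived from the fold change and its F statistic. Arm ratios, log2((5p + 0.5)/(3p + 0.5)), were tested with limma 3.58.1 over hairpins whose arms each averaged 10 counts or more. DESeq2 1.42.0, other scalings, limma on the log2 of deposited CPM with 1 or 0.1 added, and fits leaving out single libraries were alternatives. The procedures were tested on simulated data. The floor of 3 counts covers counting error only.

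Named are the members, the other arms of their hairpins, miRNAs of hairpins within 10 kb, and the 3 tested miRNAs most alike in profile to each member. A search for further miRNAs with the same seed was planned but not run, since no sequence table was used here. Positions come from Ensembl release 115. The members and lists were chosen with earlier results of these data known.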

Additional observations from a re-analysis of the deposited data

How the results depend on the processing

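The number of changed miRNAs, 45 in all, fell to 17 when replicate number was a block, and leaving out each library in turn gave 22 to 52. Without control replicates 1, 2 and 3 in turn, the counts were 29, 32 and 22. Without cadmium replicates 1, 2 and 3 in turn, they were 52, 27 and 29. Of the calls, 44.4% were higher, against 23.1% with total-count scaling and 21.1% and 21.6% in limma fits of log2 deposited CPM with 1 and 0.1 added. With no filter 55.4% of 56 calls were higher, and without miR-45-3p 39.5% of 43. The cause of these shifts was not tested.

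The number of family measurements changed was 1, and 2 with DESeq2 size factors, no filter, and the DESeq2 Wald test. It was 1 or 2 in the leave-one-out fits, miR-44/45-3p being the added one each time. Its log2 fold changes in those 3 fits were 0.60, 0.64 and 0.60, and from 0.38 to 0.73 with 1 library left out. The cause was not tested. The summed share of the family was 2.18 percentage points higher in cadmium libraries, 3.64 with the shared count entered 2 times and 1.21 to 2.71 with 1 library left out, lowest without control replicate 2. The 3 ratios between members kept their direction with 1 library left out. Of the 8 miRNAs of the miR-35 family, 6 to 8 passed the threshold as lower under the alternatives.

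Small changes turned direction. miR-44-5p was at −0.062 with total-count scaling, at −0.085 and −0.087 in the limma fits (1 and 0.1 added), and between −0.11 and 0.37 in the leave-one-out fits. miR-250-3p was at −0.047, −0.059 and −0.060 in the same fits, and at −0.00091 without control replicate 1 and −0.0093 without cadmium replicate 3. miR-43-3p lay between −0.74 and 0.11 in the leave-one-out fits, and the log2 ratio of miR-61-3p to miR-250-3p between −0.11 and 0.48, each crossing 0 when control replicate 2 was dropped. The arm ratio of mir-61 lay between −0.24 and 0.51, below 0 when control replicate 1, control replicate 3 or cadmium replicate 3 was dropped. The number of hairpins with a changed arm ratio, 2 in all, was 0 in the blocked fit and 0 to 6 in the leave-one-out fits.

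The groups share replicate numbers, and the labels do not say whether same-numbered libraries were handled together. The deviations of same-numbered libraries from their group means were not positively correlated (−0.029, −0.28 and −0.25 across miRNAs). With so few libraries per group, these values cannot show whether a batch was shared. With the block, the sign-flip test of ratios cannot go below 0.25. Under it the ratio of miR-45-5p to miR-44-5p and that of miR-247-3p to miR-44-3p each had an exact p of 0.25. Depth limits miR-42-5p and miR-250-5p, with 11 to 40 counts per library, and miR-43-5p and miR-797-3p, with 0 to 15, which were not tested.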
